A study of Mus musculus with 16 samples.

Results

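The regions described here are the promoters of long noncoding RNA (lncRNA) genes that stand apart from the promoters of protein-coding genes. A promoter was the window from 1 kb before to 1 kb after a transcription start site (TSS). Members were the windows of curated noncoding RefSeq transcripts of lncRNA genes, 1 for each distinct TSS. Windows that overlapped the same window of a protein-coding gene were left out, which removed 995 of 3529 and left 2534 windows of 2404 genes, of 31603 curated promoters in all. The cells were CD8+ T cells from the spleens of OT1 mice, which carry a transgenic T cell receptor for an ovalbumin peptide. All cultures were activated for 48 h with anti-CD3 and anti-CD28 antibodies and expanded for 3 days with IL-2. They received either 0.5 μM GSK2879552 (GSK), a compound that blocks the histone demethylase LSD1 irreversibly, during both steps, or vehicle (Veh). Chromatin immunoprecipitation with sequencing (ChIP-seq) used 6 antibodies, which gave 12 peak lists from 1 library each, and the other 4 of the 16 samples were inputs, not analysed here. GSK was the single difference between the groups that the labels give, and they give no number of mice.

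LncRNAs are transcripts without a long open reading frame. Many are spliced, capped and polyadenylated by the same machinery as messenger RNA, but they are made at lower levels and in fewer cell types. Some act on chromatin near their own gene, some build nuclear bodies, and others are the precursors of microRNAs or small nucleolar RNAs (snoRNAs). Active promoters, coding or not, carry trimethylated lysine 4 of histone H3 (H3K4me3), acetylated lysine 27 (H3K27ac) and RNA polymerase II (Pol II). LSD1 takes methyl groups off the mono- and dimethylated forms, H3K4me1 and H3K4me2, which mark enhancers and promoter flanks, and it cannot act on the trimethylated form. The comparison of GSK with Veh asks where LSD1 sat on these promoters and how the marks were placed when its activity was blocked.

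Each antibody and treatment had 1 library, so no difference was measured against a spread between replicates, no test was run and no p-value is given. Intervals in parentheses are 95% intervals (Wilson, or Newcombe for a difference) and cover counting error only. The lists held between 2751 (GSK H3K27ac) and 40272 (GSK H3K4me1) peaks, and a peak list holds no reads, so depth could not be computed from the files. The lists did not end at a like significance. Those of LSD1 and Pol II reached down to −log10 p of 3.00 to 3.01, with −log10 q of 0.523 to 0.787. Those of the histone marks ended at −log10 q of 3.01 to 3.03, so values of different antibodies were not taken at a like threshold. By the study's own account of unique read pairs, the GSK library was much shallower than the Veh library for H3K27ac, shallower for H3K4me2 and slightly shallower for LSD1, and it was deeper for H3K4me1 and Pol II and slightly deeper for H3K4me3. All 8 coding T cell genes checked, among them Cd3e, Cd8a and Lck, carried H3K4me3 in both treatments, with Pol II at 4 in Veh and at 6 in GSK. None of 4 B cell, 2 CD4 T cell and 2 natural killer cell genes carried either, and of 4 myeloid genes Cd14 alone carried H3K4me3. Of the 2534 windows, 206 overlapped another member, so neighbouring windows were not independent. The 25999 coding windows came from 20969 genes and shared more peaks. For LSD1 in Veh, 10111 coding windows had 7995 distinct strongest peaks, and 225 members had 213. The intervals do not allow for this sharing.

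The promoter sequences of 8 members are printed first, since the later results turn on how LSD1 peaks divide between windows rich and poor in CpG dinucleotides. The 3 windows with the most significant LSD1 peak in Veh only, the 3 with the most significant one in GSK only, and the leading window of each treatment among those with LSD1 in both are given. Each run is 300 bases of GRCm38.p6 (mm10) from RefSeq, 250 before the TSS and 50 from it on, read along the strand of the gene, with every CG in capitals.
LSD1 in Veh only, A630001O12Rik, chr8:126848770-126849069, plus strand: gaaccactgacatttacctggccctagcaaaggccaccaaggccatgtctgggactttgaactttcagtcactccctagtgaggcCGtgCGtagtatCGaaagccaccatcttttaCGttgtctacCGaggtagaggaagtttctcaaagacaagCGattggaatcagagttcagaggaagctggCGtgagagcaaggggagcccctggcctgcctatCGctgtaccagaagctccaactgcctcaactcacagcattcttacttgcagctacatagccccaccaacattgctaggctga
LSD1 in Veh only, 1700084D21Rik, chr13:113135826-113136125, plus strand: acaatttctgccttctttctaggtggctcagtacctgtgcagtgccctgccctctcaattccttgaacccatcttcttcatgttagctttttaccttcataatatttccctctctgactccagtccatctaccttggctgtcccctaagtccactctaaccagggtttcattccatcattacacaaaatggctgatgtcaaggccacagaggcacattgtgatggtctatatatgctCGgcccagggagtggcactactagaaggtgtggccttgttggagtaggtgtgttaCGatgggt
LSD1 in Veh only, Gm32468, chr10:93083986-93084285, plus strand: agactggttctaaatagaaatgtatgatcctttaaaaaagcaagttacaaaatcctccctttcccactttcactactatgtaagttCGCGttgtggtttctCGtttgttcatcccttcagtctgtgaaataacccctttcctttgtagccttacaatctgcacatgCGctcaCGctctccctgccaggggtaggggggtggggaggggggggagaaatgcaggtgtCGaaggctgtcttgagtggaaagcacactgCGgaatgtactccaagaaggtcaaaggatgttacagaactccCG
LSD1 in GSK only, 1700064M15Rik, chr12:99627925-99628224, minus strand: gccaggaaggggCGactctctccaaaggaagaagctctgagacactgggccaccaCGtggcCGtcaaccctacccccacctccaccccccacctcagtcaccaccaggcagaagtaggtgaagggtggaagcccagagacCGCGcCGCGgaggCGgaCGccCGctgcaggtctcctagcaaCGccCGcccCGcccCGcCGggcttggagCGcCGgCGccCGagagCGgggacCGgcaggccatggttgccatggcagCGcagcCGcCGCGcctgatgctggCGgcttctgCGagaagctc
LSD1 in GSK only, A430088P11Rik, chr15:80697561-80697860, minus strand: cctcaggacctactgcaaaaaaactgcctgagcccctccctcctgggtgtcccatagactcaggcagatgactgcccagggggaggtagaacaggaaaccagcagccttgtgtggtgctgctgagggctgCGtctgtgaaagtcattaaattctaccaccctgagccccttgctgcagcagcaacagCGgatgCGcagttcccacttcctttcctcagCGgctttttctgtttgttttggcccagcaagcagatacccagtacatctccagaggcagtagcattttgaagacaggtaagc
LSD1 in GSK only, Snhg8, chr3:123508287-123508586, minus strand: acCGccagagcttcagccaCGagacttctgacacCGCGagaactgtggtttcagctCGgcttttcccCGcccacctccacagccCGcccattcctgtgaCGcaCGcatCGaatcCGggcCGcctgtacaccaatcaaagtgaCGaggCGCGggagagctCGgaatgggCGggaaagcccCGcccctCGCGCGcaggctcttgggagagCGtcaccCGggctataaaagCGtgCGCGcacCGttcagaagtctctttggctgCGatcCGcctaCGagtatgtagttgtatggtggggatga
LSD1 in both, 1500004A13Rik, chr3:88832498-88832797, minus strand: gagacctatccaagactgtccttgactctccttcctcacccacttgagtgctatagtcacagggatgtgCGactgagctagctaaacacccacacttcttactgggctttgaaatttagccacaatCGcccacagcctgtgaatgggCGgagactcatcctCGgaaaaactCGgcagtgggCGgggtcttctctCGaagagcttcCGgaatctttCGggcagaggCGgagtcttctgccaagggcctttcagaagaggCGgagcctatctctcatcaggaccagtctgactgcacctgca
LSD1 in both, A230051N06Rik, chr17:56241466-56241765, plus strand: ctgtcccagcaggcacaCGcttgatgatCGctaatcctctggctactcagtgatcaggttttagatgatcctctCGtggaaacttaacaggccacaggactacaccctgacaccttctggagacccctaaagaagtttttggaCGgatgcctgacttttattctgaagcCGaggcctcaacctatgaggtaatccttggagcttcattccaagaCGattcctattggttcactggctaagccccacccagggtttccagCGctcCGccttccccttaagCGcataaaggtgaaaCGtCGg

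The printed runs of A630001O12Rik, 1700084D21Rik and Gm32468 held 8, 2 and 8 CpG dinucleotides. None of them lay under the LSD1 peak itself, whose summit was at −1340, −1113 and −777 bases from the TSS. The fold enrichment over background of these Veh peaks, as deposited, was 7.89, 9.39 and 7.34, with −log10 p of 39.2, 24.8 and 17.1. The first peak, chr8:126847449-126848132, reached into its window from the upstream side, and Pol II, H3K27ac and H3K4me2 were called there in Veh only as well. Both neighbours in this group had H3K4me1 in both treatments, and no member of the group had H3K4me3 in either.

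The printed run of 1700064M15Rik held 27 CpG dinucleotides, that of A430088P11Rik 4 and that of Snhg8 30, and all 3 runs lay wholly under the GSK LSD1 peak. The GSK peaks had a fold of 6.34, 5.65 and 6.41 and −log10 p of 13.4, 12.1 and 10.8. All 3 windows had H3K4me3 in both treatments. Snhg8, a snoRNA host gene whose transcript used here is annotated with 1 exon, had the largest Pol II peak of these windows, with a fold of 11.7 in Veh and 11.8 in GSK, and its printed run held 1 match to TATAAA, the TATA box core.

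LSD1 at 1500004A13Rik had a fold of 11.94 in Veh and 10.997 in GSK and −log10 p of 47.3 and 37.9. The summit lay 130 bases into the gene in Veh and 121 in GSK, and the Veh peak covered 155 of the printed bases. H3K4me3 was called there in both treatments, at a fold of 2.48 and 2.66. LSD1 at A230051N06Rik had a fold of 12.9 in Veh and 15.6 in GSK, with −log10 p of 45.6 and 54.3 and a summit 473 and 494 bases into the gene. No other antibody had a peak in that window, in either treatment.

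Most lncRNA promoters carried none of the 6 marks. In 1906 of 2534 windows (75.2%; 73.5 to 76.9) no list had a peak, against 9400 of 25999 coding promoters (36.2%; 35.6 to 36.7). H3K4me1 was the most frequent mark, in 363 windows in Veh (14.3%; 13.0 to 15.7), and H3K4me3 followed with 311 (12.3%; 11.1 to 13.6). H3K4me2 was found in 235 (9.27%), LSD1 in 225 (8.88%), Pol II in 171 (6.75%) and H3K27ac in 134 (5.29%). At coding promoters the order differed: H3K4me3 led with 54.5%, H3K4me2 had 42.3%, LSD1 38.9%, H3K4me1 31.8%, Pol II 31.1% and H3K27ac 22.2%. The share in lncRNA promoters minus that in coding promoters was −42.2 percentage points (−43.6 to −40.7) for H3K4me3 and −17.4 (−18.9 to −15.9) for H3K4me1.

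Windows of the same width 10 kb to either side of the lncRNA TSSs, clear of every curated promoter, served as the local background. Among 4782 such windows, H3K4me3 was found in 0.962% in Veh, LSD1 in 2.34%, Pol II in 1.00%, H3K27ac in 0.586% and H3K4me2 in 1.17%. H3K4me1 had the highest background, at 5.52%. The lncRNA promoters were above this level for all 6 antibodies in both treatments, with intervals that did not overlap.

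**Figure D1:**
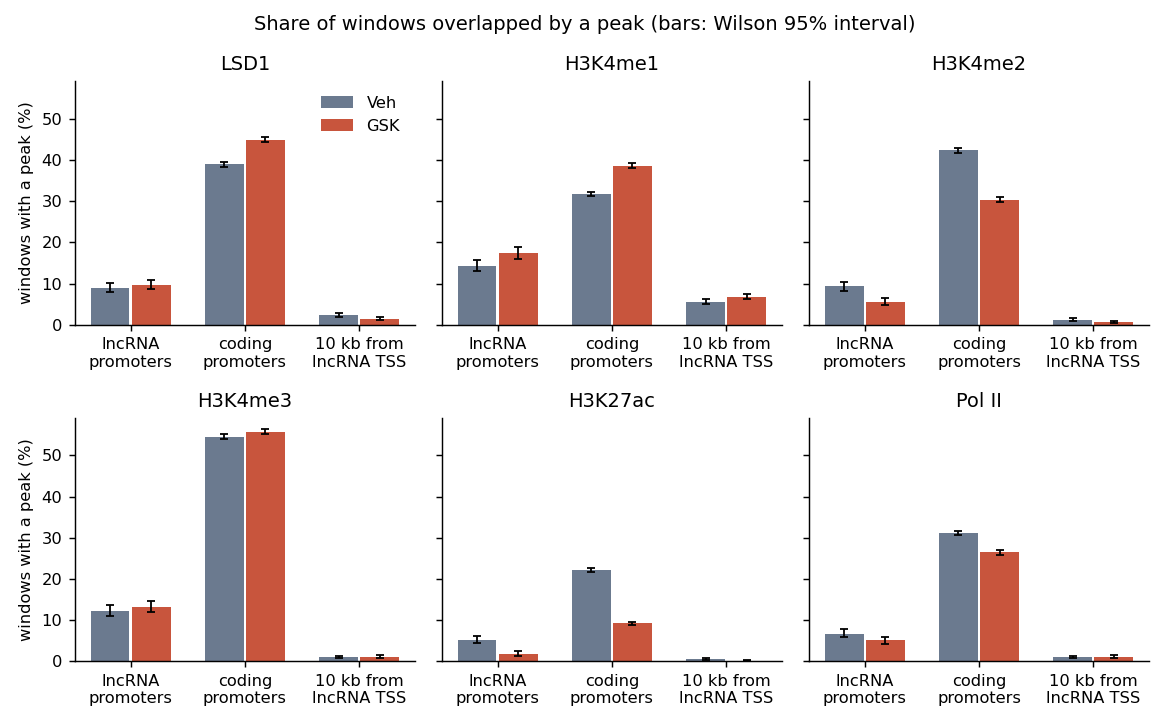
Share of windows (%) overlapped by a peak of each antibody in Veh (blue-grey) and GSK (red), for the 2534 lncRNA promoters, the 25999 protein-coding promoters and the 4782 windows 10 kb from a lncRNA TSS. Error bars are Wilson 95% intervals. lncRNA promoters lie between the other groups for every antibody, with H3K4me3 at 12.3% in Veh against 54.5% at coding promoters and 0.962% at a distance of 10 kb.

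Where an lncRNA promoter had H3K4me3, much of the gap to coding promoters closed. Among the 311 members with H3K4me3 in Veh, H3K27ac was found in 39.9% (34.6 to 45.4), against 40.6% of 14166 such coding promoters, a difference of −0.712 points (−6.06 to 4.88). H3K4me1 was found in 52.7% against 47.3%, a difference of 5.47 points (−0.144 to 11.01). LSD1 remained lower, at 54.7% against 68.1% (difference −13.5 points; −19.1 to −7.96), as did H3K4me2, at 61.1% against 72.7% (−11.6; −17.2 to −6.31), and Pol II, at 48.2% against 56.4% (−8.15; −13.7 to −2.55). The H3K4me3 peaks were less significant and narrower at lncRNA promoters, with a median −log10 p of 34.5 against 76.2 and a median width of 1050 against 1263 bases.

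Combinations of marks divided the members in a few ways. In Veh, 150 windows had H3K4me3 with Pol II, 161 had H3K4me3 without Pol II, and 21 had Pol II without H3K4me3. H3K4me1 without H3K4me3, the pairing usual at enhancers, was found in 199 windows (7.85%; 6.87 to 8.97), against 6.004% of coding promoters, and in 129 of them H3K4me1 was the single mark. LSD1 sat with H3K4me3 in 170 of its 225 windows and without it in 55, of which 40 had H3K4me1. Only 29 windows had all 6 antibodies in Veh and 5 in GSK, and 5 had a peak in each of the 12 lists.

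The sequence of the promoter ran parallel to these groups. A promoter was called CpG-rich where the 300 bases around its TSS had at least 50% G and C and an observed to expected CpG ratio of at least 0.6. This held for 210 members (8.29%; 7.28 to 9.42) and for 45.7% of coding promoters. Of the 210, 61.0% (54.2 to 67.3) had H3K4me3 in Veh, 44.3% had LSD1 and 35.2% had Pol II. Of the other 2324, 7.87% (6.85 to 9.04) had H3K4me3, 5.68% LSD1 and 4.17% Pol II. CpG-rich windows were 42.2% of the members with H3K4me3 in both treatments, 6.25% of those with H3K4me1 in either treatment and H3K4me3 in none, and 2.97% of those with neither.

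**Figure D2:**
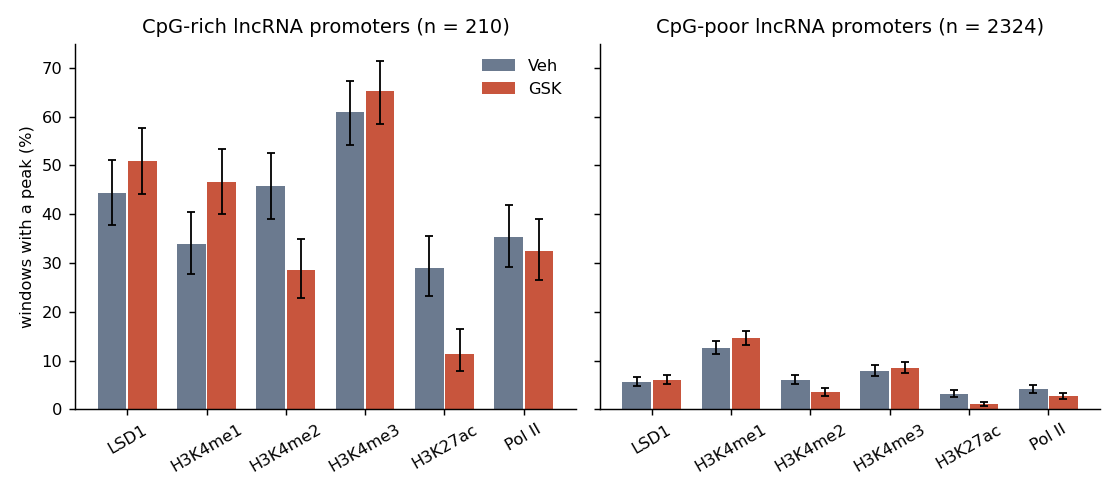
Share of lncRNA promoters (%) with a peak of each antibody in Veh (blue-grey) and GSK (red), for the 210 CpG-rich and the 2324 CpG-poor windows, with Wilson 95% intervals. H3K4me3 in Veh is at 61.0% in the first class and at 7.87% in the second, and H3K4me1 in Veh is at 33.8% and 12.6%.

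The share with H3K4me3 was lowest in the windows farthest from coding genes. The median distance from a member's TSS to the nearest coding TSS was 54148 bases. H3K4me3 in Veh was found in 15.7% (10.8 to 22.3) of the 153 windows at 2 to 5 kb, in 19.9% (16.6 to 23.7) of 482 at 5 to 20 kb, in 14.8% (12.8 to 17.1) of 1060 at 20 to 100 kb and in 4.05% (2.91 to 5.61) of 839 farther away. The 499 windows antisense inside a coding gene, at 10.8% (8.39 to 13.9), and the 1987 intergenic windows, at 12.7% (11.3 to 14.2), had intervals that overlapped. The 83 members with a single exon had H3K4me3 in 36.1% (26.6 to 46.9), against 11.5% (10.3 to 12.8) of the spliced ones. Very few of the peaks in members also touched the window of a coding gene, at most 3.10% in any list (GSK H3K4me2).

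Short sequence motifs were counted on both strands of the 300 bases. TATAAA was found in 14.3% of members and 12.3% of all 31603 promoters, GGAAGT, a core of ETS sites, in 22.9% and 23.9%, TGTGGT, the RUNX core, in 20.8% and 15.3%, and AAATCA, the core of GFI1 sites, in 16.4% and 12.6%. TATAAA and AAATCA can share the bases AAA, and GFI1 is a repressor known to bind LSD1. AAATCA was found in 6.06% (3.32 to 10.8) of the 165 members with LSD1 in both treatments, in 8.54% (4.197 to 16.6) of the 82 with LSD1 in GSK only, in 20.0% (11.8 to 31.8) of the 60 with LSD1 in Veh only, and in 17.3% of those without LSD1. The median G and C content of these groups was 57.3%, 52.3%, 50.7% and 48.0%, and its part in the difference was not tested. The interval of the Veh-only windows overlapped that of the windows without LSD1. Over all promoters, AAATCA was in 6.43% of those with LSD1 in both treatments and in 7.68% with LSD1 in GSK only. It was in 10.2% with LSD1 in Veh only and in 17.2% without LSD1.

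The difference between the Veh and GSK lists at lncRNA promoters varied from antibody to antibody. H3K4me3 was the steadiest mark: 303 windows had it in both treatments, 8 in Veh only and 33 in GSK only. Over all curated promoters, 0.351% had H3K4me3 in Veh only and 1.52% in GSK only, and the members' shares of 0.316% and 1.30% lay near these. H3K4me1 was found in 325 windows in both, in 38 (1.50%) in Veh only and in 113 (4.46%) in GSK only, where all promoters gave 3.5% and 9.78%. The share with H3K4me1 was 2.96 points higher in GSK (2.02 to 3.92), from 14.3% to 17.3%.

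H3K4me2, H3K27ac and Pol II were found in fewer windows in GSK. H3K4me2 was in 124 windows in both treatments, 111 (4.38%) in Veh only and 17 (0.671%) in GSK only, beside 12.8% and 1.92% of all promoters, a net difference of −3.71 points (−4.61 to −2.86). H3K27ac was in 48 in both, 86 (3.39%) in Veh only and none in GSK only, beside 12.1% and 0.335%. A count of 0 of 2534 allows a share of up to 0.118%, taken as 3 counts of the total and not as a Wilson limit. Pol II was in 103 in both, 68 (2.68%) in Veh only and 26 (1.03%) in GSK only, beside 7.08% and 2.84%, a net difference of −1.66 points (−2.44 to −0.912). These shares are of all windows, and a smaller share of members than of coding promoters had a peak in Veh. Of members with H3K4me2 in Veh, 52.8% had it in GSK, against 67.0% at coding promoters (−14.2 points; −20.7 to −7.88). For Pol II the values were 60.2% and 74.9% (−14.7; −22.2 to −7.57), and for H3K27ac 35.8% and 40.0% (−4.17; −11.9 to 4.34).

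The net differences between Veh and GSK partly followed the lengths of the lists. The GSK lists of H3K4me2 and H3K27ac were shorter than the Veh lists, at 9437 against 15219 and 2751 against 7410 peaks, and the GSK list of H3K4me1 was longer, at 40272 against 34387. When the longer list of each pair was cut to the length of the shorter by significance, the net difference was 0 points for both H3K4me2 and H3K4me3, 0.789 (−0.125 to 1.71) for H3K4me1 and −0.513 (−1.03 to −0.0311) for H3K27ac. That of Pol II, whose lists were near equal in length, stayed at −1.66. That of LSD1 was 1.34 (0.425 to 2.27), an interval that no longer included 0. With 1 library per treatment, a difference between libraries and one between treatments cannot be told apart. For H3K27ac, H3K4me2, H3K4me1 and H3K4me3 the deeper library was also the one with more marked lncRNA promoters, and for LSD1 and Pol II it was the one with fewer, and the part of depth in these counts was not tested.

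LSD1 was found in 165 windows in both treatments, in 60 (2.37%) in Veh only and in 82 (3.24%) in GSK only, beside 4.51% and 9.92% of all promoters. The net difference was 0.868 points (−0.0589 to 1.80), an interval that includes 0, while at coding promoters it was 5.94 points (5.47 to 6.42). The shares in Veh, 8.88% and 38.9%, were far apart, so these points are not on a like base. Among windows with H3K4me3 in Veh, LSD1 was in 54.7% in Veh and 61.1% in GSK at lncRNA promoters. At such coding promoters it was in 68.1% and 77.8%. In the 165 shared windows the peak's fold rank within its library was a median of 0.949 percentile points higher in GSK, with 88 higher and 77 lower. At coding promoters with LSD1 in both, the median was 6.44 points higher, with 5735 higher and 3113 lower. These windows had LSD1 in both treatments by choice, so the counts are a description.

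**Figure D3:**
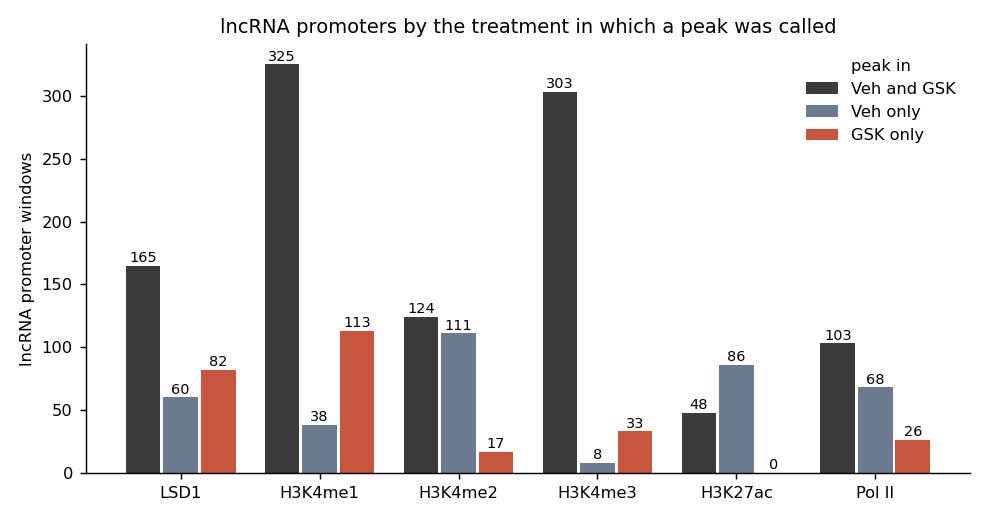
Number of lncRNA promoter windows with a peak of each antibody in both treatments (black), in Veh only (blue-grey) and in GSK only (red). H3K4me3 has 303 shared windows against 8 and 33 in 1 treatment, and H3K27ac has 86 in Veh only and 0 in GSK only.

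LSD1 retention, the share of windows bound by LSD1 in Veh that were bound in GSK too, was 73.3% (67.2 to 78.7) at lncRNA promoters and 87.5% at coding promoters, a difference of −14.2 points (−20.3 to −8.78). Retention of H3K4me2 and Pol II was lower at lncRNA promoters as well, by −14.2 and −14.7 points. LSD1 retention differed with the mark beside LSD1 in Veh. With H3K4me3 in Veh, 141 of 170 windows kept LSD1 (82.9%; 76.6 to 87.9), and without it 24 of 55 (43.6%; 31.4 to 56.7), a difference of 39.3 points (24.7 to 52.5). Coding promoters showed the same order, with 89.0% and 56.4%. The lncRNA minus coding difference was −6.05 points (−12.4 to −1.10) with H3K4me3 and −12.8 (−25.8 to 1.10) without it. Of the windows with LSD1 in Veh, 55 of 225 members and 461 of 10111 coding promoters had no H3K4me3. In the windows with H3K4me1 and no H3K4me3, 20 of 40 kept LSD1.

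The same order was found among stronger and among weaker Veh peaks. Windows whose Veh LSD1 peak was above the members' median −log10 p of 7.19 kept it in 82 of 89 cases with H3K4me3 (92.1%; 84.6 to 96.1) and in 13 of 23 without (56.5%; 36.8 to 74.4). At or below the median the counts were 59 of 81 (72.8%; 62.3 to 81.3) and 11 of 32 (34.4%; 20.4 to 51.7). CpG-rich windows kept LSD1 in 82 of 93 cases (88.2%; 80.1 to 93.3) and CpG-poor windows in 83 of 132 (62.9%; 54.4 to 70.6). Windows with H3K4me3 were more often CpG-rich, and the parts of CpG class and H3K4me3 in retention were not tested apart. LSD1 peaks 10 kb away from the lncRNA TSSs were kept in 37.5% (29.1 to 46.7) of 112 windows, an interval that overlapped that of the members without H3K4me3.

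**Figure D4:**
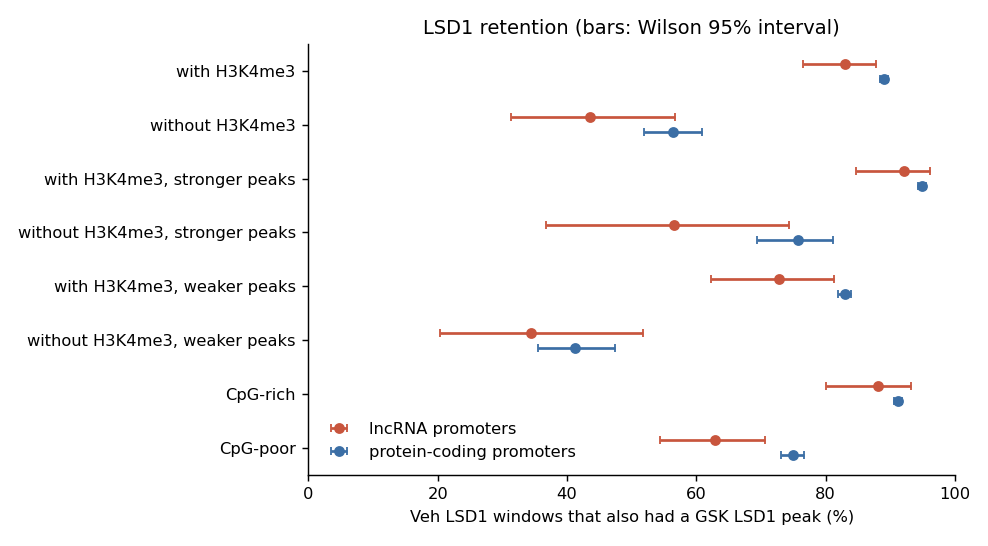
LSD1 retention (% of windows bound in Veh that were bound in GSK too) at lncRNA (red) and protein-coding (blue) promoters, with Wilson 95% intervals, by H3K4me3 in Veh, by peaks above (stronger) or at most at (weaker) each group's own median −log10 p, and by CpG class. Retention at lncRNA promoters is 82.9% with H3K4me3 and 43.6% without, and the order holds among stronger and among weaker peaks.

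The 60 windows with LSD1 in Veh only and the 82 with LSD1 in GSK only had overlapping intervals for both sequence and H3K4me3. CpG-rich windows were 18.3% (10.6 to 29.9) of the first and 30.5% (21.6 to 41.1) of the second, against 49.7% (42.2 to 57.2) of those with LSD1 in both. Coding promoters had the same order, with 53.8%, 68.5% and 80.2%. H3K4me3 in both treatments was found in 28 of the 60 (46.7%; 34.6 to 59.1) and in 49 of the 82 (59.8%; 48.9 to 69.7). The single-treatment peaks were weaker, with a median fold of 3.68 in Veh only and 4.14 in GSK only, while shared windows had 4.52 in Veh and 4.89 in GSK.

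The windows with H3K4me1 in GSK only included promoters with H3K4me3 in Veh and promoters without any Veh peak. Of the 113, 45 (39.8%; 31.3 to 49.0) had H3K4me3 in Veh, 59 (52.2%; 43.1 to 61.2) had no Veh peak of any antibody, and 32 had LSD1 in Veh. H3K27ac was present in GSK in 7 of them and Pol II in 22. Members with LSD1 in Veh and free of H3K4me1 had it in GSK in 32 of 89 cases (36.0%; 26.8 to 46.3), and those without LSD1 in 81 of 2082 (3.89%; 3.14 to 4.81). Coding promoters gave 32.0% and 8.50%. Most windows without LSD1 were unmarked, however, and among windows with H3K4me3 the values were 26 of 74 (35.1%) and 19 of 73 (26.0%), a difference of 9.11 points (−5.75 to 23.4), which includes 0. The coding values there were 32.1% and 27.2%, a difference of 4.81 points (2.58 to 6.99).

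H3K4me2 and H3K27ac peaks of Veh were absent in GSK less often where LSD1 was bound. Among members with H3K4me3 in Veh, H3K4me2 was absent in GSK in 46 of 125 windows with LSD1 (36.8%) and in 36 of 65 without (55.4%), a difference of −18.6 points (−32.5 to −3.71). H3K27ac was absent in 49 of 85 (57.6%) and in 31 of 39 (79.5%), a difference of −21.8 points (−36.2 to −3.82). Pol II was absent in 26 of 97 (26.8%) and in 21 of 53 (39.6%), and that difference of −12.8 points (−28.4 to 2.56) included 0. Coding promoters with H3K4me3 had the same direction for all 3, with differences of −7.94 points (−9.98 to −5.92) for H3K4me2, −7.08 (−9.86 to −4.26) for H3K27ac and −6.92 (−9.14 to −4.74) for Pol II. CpG-rich windows were 49.7% of all members with LSD1 in both treatments and 4.13% of those without LSD1. Neither CpG class nor peak strength was held fixed here, and their part was not tested. Of the 68 windows that had Pol II in Veh only, 45 had H3K4me3 in both treatments. By comparison, all 103 windows with Pol II in both treatments had H3K4me3 in Veh. None of the 21 windows with Pol II and no H3K4me3 in Veh had Pol II in GSK.

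Most genes with the most significant peak in 1 treatment only are known only by clone or model names. Among those with a name, Nron, a scaffold RNA that holds NFAT in the cytoplasm, had H3K4me1 in GSK only, at a fold of 4.70 and −log10 p of 17.9, centred at −1790 bases from the TSS. Carlr, an lncRNA of the NF-κB response in macrophages, had H3K4me1 in GSK only at a fold of 6.75, and its weak LSD1 peak, at 3.18, was in Veh only. Oip5os1, also known as Cyrano, an RNA that drives decay of a microRNA, had the most significant Pol II peak that was absent in GSK, at a fold of 7.08, though H3K4me3 stood at 7.26 and 7.42.

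Further windows had peaks of some antibodies in 1 treatment beside peaks of others in both. At D230017M19Rik, H3K27ac had a fold of 7.34 in Veh and no peak in GSK, beside Pol II at 17.0 and 12.8. At 2900060B14Rik, H3K27ac stood at 5.84 in Veh only and LSD1 at 5.91 in GSK only. At AI504432, 3342 bases from Kcna3, the H3K4me3 peak of Veh, with −log10 p of 91.3, had its centre at −2235 bases from the TSS, and neither it nor LSD1 at 4.74 was called within the window in GSK. The nearest H3K4me3 peak was 786 bases from the TSS in Veh and 1402 in GSK, outside the window. At Gm46567, H3K4me3 was called in GSK only, at 5.78, in a window where LSD1 stood at 9.58 in Veh and 12.7 in GSK. At 2610307P16Rik, 4 antibodies had peaks in GSK only, with LSD1 at 4.08, H3K4me1 at 4.85, H3K4me2 at 5.38 and H3K4me3 at 3.83. The 3 windows with the most significant Pol II peaks in GSK only, 2700054A10Rik, Gm13842 and Gm27162, had folds of 5.82, 4.84 and 3.64 and no H3K4me3 within the window in either treatment. The H3K4me3 peak nearest to 2700054A10Rik lay just outside it, 1023 bases from the TSS in Veh and 1009 in GSK.

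Host genes of snoRNAs were the most fully marked list. These genes give rise to snoRNAs, which guide modification of ribosomal RNA, and most begin with a pyrimidine-rich start as ribosomal protein genes do. Of 15 windows of 14 genes, 14 had both H3K4me3 and Pol II in both treatments, and only Snhg11 had no peak at all. Pol II stood at a fold of 12.6 in Veh and 11.3 in GSK at Snhg12, at 11.8 and 10.8 at Snhg3, at 11.5 and 8.91 at Snhg5, and at 10.2 and 7.09 at Snhg6. All of these were above the 96th percentile of their list. LSD1 was in 9 windows in Veh and in those and 4 more in GSK, at Snhg3, Snhg8, Snhg15 and Snhg20. Of all members with H3K4me3 and no LSD1 in Veh, 34.8% had LSD1 in GSK, against 53.9% of such coding promoters. H3K27ac was in 12 in Veh and 3 in GSK, and H3K4me2 in 10 and 3. Over all members, 35.8% of Veh windows with H3K27ac and 52.8% of those with H3K4me2 had it in GSK.

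In single values, LSD1 at Epb41l4aos had a fold of 5.70 in Veh and 7.18 in GSK, and at Snhg5 of 5.14 and 6.91. At Snhg16 it went the other way, with 6.18 and 5.73. H3K4me1 was called in GSK only at Epb41l4aos, Snhg12 and both starts of Snhg17. Of all members with H3K4me3 and no H3K4me1 in Veh, 30.6% had H3K4me1 in GSK, against 30.5% of such coding promoters. Dancr, an lncRNA known for holding cells undifferentiated, had LSD1 at 4.16 and 4.13 and Pol II at 6.64 and 3.60.

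Nuclear and chromatin-associated lncRNAs were present with 13 windows of 11 genes, of which 9 windows had H3K4me3 in both treatments and none had H3K4me2 in either. Malat1, an abundant RNA of nuclear speckles, had the most significant Pol II peak of the list, with a fold of 12.6 in Veh and 11.4 in GSK and −log10 p of 167 and 155. Its H3K4me3 peak had a fold of 2.49 and 2.51 and was centred over 2 kb into the gene. Neat1, the scaffold of paraspeckles, had Pol II at 11.1 and 9.45 at its first start, H3K4me3 at 4.31 and 4.17 and LSD1 at 2.56 and 3.67. Its pair of starts lies 2 bases apart and shares all peaks.

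Around the X inactivation centre, Xist, the RNA that coats the inactive X chromosome, had H3K4me3 at 3.49 in Veh and 3.77 in GSK and Pol II at 6.12 and 3.99, with LSD1 in GSK only at 4.71. Jpx, an activator of Xist, had LSD1 in GSK only as well, at 4.68, and H3K4me3 at 7.04 and 6.93. Ftx, another neighbour, had LSD1 at 6.08 in Veh and 3.90 in GSK and no Pol II peak. Of the imprinted lncRNAs, Kcnq1ot1 had H3K4me3 in both, at 4.62 and 4.78, while LSD1 at 4.32, H3K27ac at 3.85 and Pol II at 5.42 were called in Veh only. Airn, which silences Igf2r in cis, had H3K4me3 at 5.53 and 5.09 and Pol II in Veh only at 5.31. H19, Meg3 and the HOX gene transcript Hotair had no peak of any antibody.

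Of 8 windows of 6 microRNA host genes, 3 had H3K4me3 in both treatments, those of Dleu2, Mir22hg and Mir155hg. Dleu2 hosts the miR-15a and miR-16-1 pair, and had LSD1 at 3.41 in Veh and 3.10 in GSK and Pol II at 3.01 and 3.25. Mir22hg had H3K4me3 at 5.89 and 5.68 and H3K27ac at 4.10 and 4.196, without LSD1. At Mir155hg, source of the miRNA induced on T cell activation, LSD1 at 4.37 and H3K4me1 at 3.11 were in Veh only and H3K4me3 was 4.57 and 4.72. Mir17hg, host of a growth-promoting cluster, had H3K4me1 in GSK only in its window, and the nearest Veh H3K4me3 peak lay 1320 bases from its annotated TSS. Mir100hg with 3 windows and Mir205hg had no peak.

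The list called T cell and immune lncRNAs had 11 windows of 10 genes, with H3K4me3 in 9 in Veh and 10 in GSK. It also holds lncRNAs named for other settings, such as Norad (DNA damage) and Miat and Mirt1 (myocardial infarction). LSD1 was in 4 in Veh and 6 in GSK, and only Mirt1 had it in both, at a fold of 5.44 in Veh and 3.74 in GSK. LSD1 in Veh only was found at Morrbid, Mir155hg and Lncpint, and in GSK only at Miat, Norad, Trp53cor1 and both starts of Pvt1, which share 1 peak. Over all members, 165 of 225 windows with LSD1 in Veh had it in GSK too (73.3%). LSD1 in Veh only and in GSK only was found in 2.37% and 3.24% of members, beside 4.51% and 9.92% of all promoters. H3K27ac was in 4 windows in Veh and none in GSK, while of all members with it in Veh 48 of 134 (35.8%) had it in GSK. Of these LSD1 peaks in 1 treatment, that of Norad had the highest fold, at 4.41.

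Morrbid, which holds down the death gene Bcl2l11 in cis in myeloid and CD8+ T cells, had H3K4me3 at 5.08 in Veh and 4.97 in GSK. In Veh only it had LSD1 at 2.78, H3K4me2 at 3.63, H3K27ac at 3.66 and Pol II at 3.32, and in GSK only H3K4me1 at 3.47, centred at −1547 bases from the TSS. Ifngas1, antisense neighbour and activator of the interferon gamma gene, had H3K4me3 alone, at 4.59 and 5.23. Pvt1, beside Myc, had H3K4me3 at 4.71 and 4.48 and LSD1 in GSK at 3.42. Norad, an RNA that binds Pumilio proteins, had H3K4me3 at 7.07 and 7.56, LSD1 at 4.41 and H3K4me2 at 4.32 in GSK only, and H3K27ac at 5.30 and Pol II at 5.72 in Veh only. Trp53cor1, a p53 target also named lincRNA-p21, had Pol II at 3.34 and 2.67. Miat was the single listed window with H3K4me3 in GSK only, at 4.29 with −log10 p of 7.63. Ptgs2os2, beside the cyclooxygenase gene Ptgs2, had H3K4me1 alone in both treatments.

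**Figure D5:**
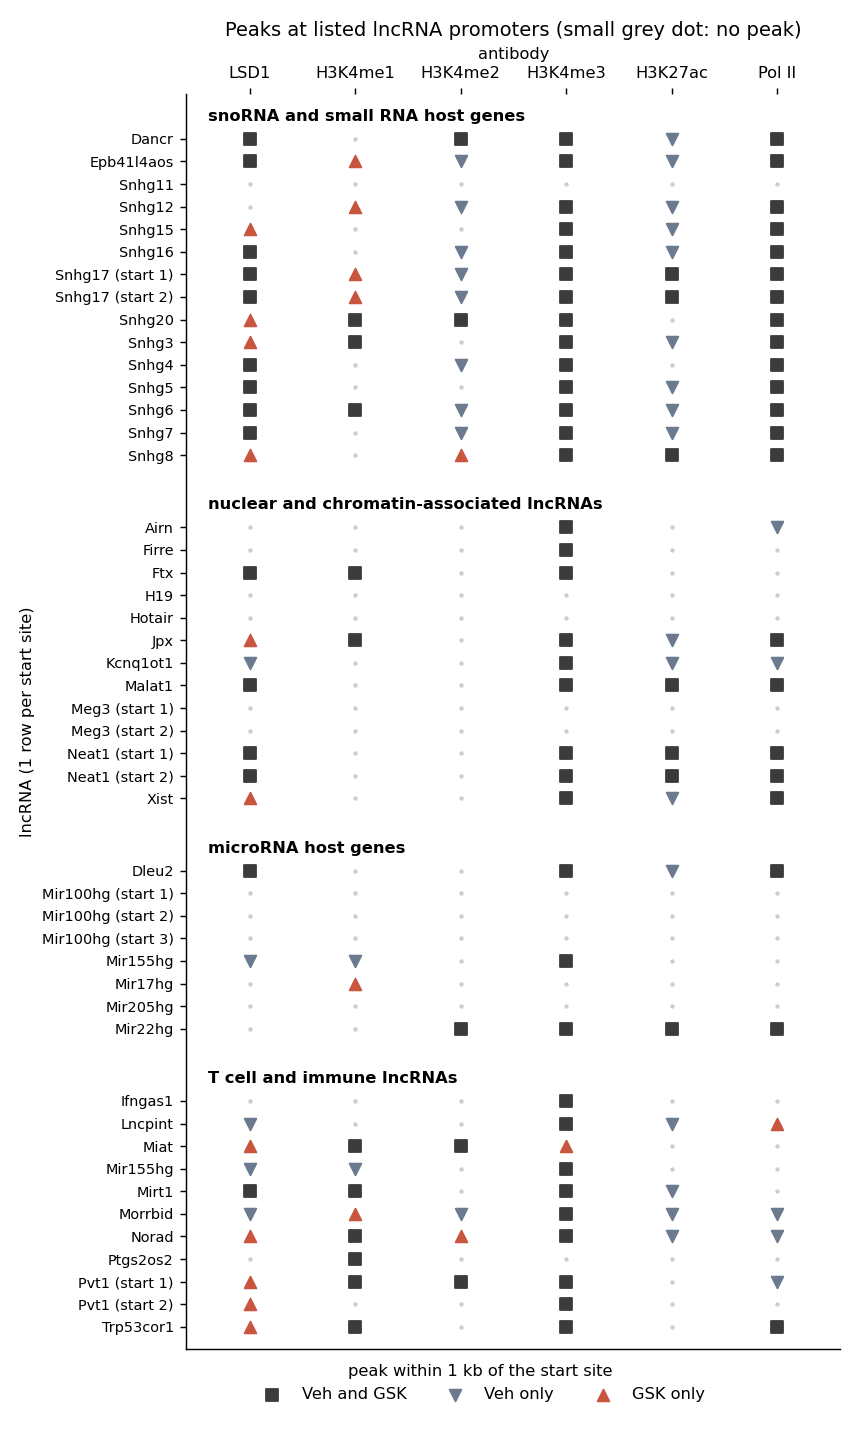
Peaks of the 6 antibodies (columns) within 1 kb of each start site of the listed lncRNAs (rows), called in both treatments (black squares), in Veh only (blue-grey, pointing down), in GSK only (red, pointing up) or in neither (small dots). Of 15 snoRNA host windows, 14 have H3K4me3 and Pol II in both treatments. In the T cell and immune list, 4 of 11 windows have LSD1 in Veh and only Mirt1 has it in both, while over all members 165 of 225 do.

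Ranked by fold for H3K4me3 and Pol II over both treatments, the leading windows were 1500011B03Rik, Gm43305, Slc36a3os, Gm36220 and Gm11963. The first had H3K4me3 at 10.3 in Veh and 10.1 in GSK and Pol II at 6.86 and 5.73, with LSD1 at 4.60 and 6.80. Gm43305 had the highest H3K4me3 fold of these, at 10.98 and 12.75, and no LSD1 peak in either treatment. Gm36220 had the highest Pol II, at 12.6 and 10.6. H3K27ac was called in both treatments at Slc36a3os alone, with 4.74 and 5.87.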

How the data were processed

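ChIP-seq peak lists of 6 antibodies in Veh and GSK cells, 1 library each, were analysed. Per the study's methods, reads were mapped uniquely to mm10 with Bowtie2 and duplicates were removed with Samtools. By the study's account, the authors called peaks with MACS2 at a p cutoff of 0.001, per library. Peaks were narrow for LSD1 and Pol II and broad for the histone marks. The deposited broad lists ended at −log10 q of 3.01 to 3.03, a stricter limit than that of the narrow lists. Input libraries served as the control, and which of the inputs went with each list is not given in the sources used here. The study states tool versions, not repeated here, and that libraries were thinned to equal read numbers to compare signals. Whether peaks were called on thinned reads is not stated. Bedtools and edgeR are also named in the submitters' processing notes. The deposited columns used were the fold enrichment over background and the −log10 p and −log10 q as the authors' caller gave them. The deposited score is a multiple of −log10 p for narrow peaks and of −log10 q for broad peaks and was not used.

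Windows came from the RefSeq annotation of GRCm38.p6, whose coordinates are those of mm10, and 2029 of the 2534 members were matched in the RefSeq promoter table. A window had a peak where at least 1 base overlapped, and the most significant peak in it gave its values. Shares carry Wilson intervals and differences Newcombe intervals, for paired shares where both treatments were compared. Genes were named as members of 4 lists, as the 3 most significant windows per antibody in 1 treatment only, as the 5 with the most significant LSD1 peak per treatment, and as the 5 with the highest fold rank for H3K4me3 and Pol II. Members and lists were chosen with earlier results of these data known. The windows 10 kb away, the CpG classes, motifs, positions and the splits by H3K4me3 and peak strength were chosen after the data were seen. The overlap code was tested on simulated data. Alternatives covered the window width, summit position, significance, list length, annotation and distance to coding genes. Python 3.11.15 with pandas 2.3.3, numpy 2.4.6, scipy 1.17.1 and pyfaidx 0.9.0.4 was used.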

Additional observations from a re-analysis of the deposited data

How the results depend on the processing

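Of 80 comparisons of 10 values with 8 alternatives, 50 moved by less than the counting interval, 30 moved by more and 0 changed sign among values whose interval excluded 0. With windows of 0.5 kb to either side, the net difference of H3K4me1 was 1.89 points and the Veh LSD1 share 7.18%. With the summit or midpoint required inside the window, the net H3K4me1 difference was 2.01 points and the Veh H3K4me3 share 11%. With −log10 q of at least 5, the net H3K4me2 difference was −2.33 points, LSD1 retention 65.5%, and the Veh shares 3.43% for LSD1 and 3.51% for Pol II. With lists of equal length, the net differences were 0.789 points for H3K4me1, 0 for H3K4me2, 0 for H3K4me3 and −0.513 for H3K27ac.

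With predicted gene models added, which gave 13169 windows, the net differences were −0.213 points for LSD1 (−0.551 to 0.125), opposite in sign to the value reported, 1.95 for H3K4me1, −1.73 for H3K4me2, −1.45 for H3K27ac and −0.524 for Pol II. LSD1 retention was 59.8%, and the Veh shares were 5.1% for LSD1, 5.22% for H3K4me3 and 2.76% for Pol II. With the 3529 windows that include those at coding promoters, the net differences were 2.64 points for LSD1, 4.22 for H3K4me1, −6.57 for H3K4me2, −6.8 for H3K27ac and −2.61 for Pol II. LSD1 retention was 85%, and the Veh shares were 22.1%, 29.4% and 16.6%. With 1 window per gene, or with windows over 5 kb from a coding TSS, an alternative added after the data were seen, none of the 10 values moved beyond its interval. LSD1 retention with H3K4me3 was 74.9 to 89.8% over the settings, and without it 34.8 to 46.0%.

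No paired analysis was possible because the results come from no test and each antibody had 1 library per treatment. The replicate numbers in the labels belong to inputs. A list holds only peaks past its threshold, so a missing peak is not a measured absence of signal.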
